A study of Mus musculus with 10 samples.

Results

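The genes that supply acetate and acetyl-CoA to the cytosol were followed in livers of mice kept for 4 months on a diet high in fat and fructose. They are the 10 genes Acss1, Acss2, Acss3, Acot12, Acly, Slc25a1, Slc16a1, Slc16a7, Crat and Mlycd, taken by symbol from a count table of 56748 genes, and every one was found once. There were 5 liver RNA-seq libraries of the genotype ACSS2-flox, the floxed controls (flox), and 5 of the genotype ACSS2-HKO, in which Acss2 had been knocked out in liver cells (HKO). Both groups had the same diet, so no library came from a mouse on ordinary chow. The sources used here do not give the strain, age, sex, Cre driver or the exons flanked by loxP sites, nor whether each library came from a separate animal, so p-values measure the spread between these libraries. The comparison asks how the supply genes stood when Acss2 was targeted, including whether Acss1, Acss3 or Acly had a higher level in HKO than in flox.

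Acetyl-CoA cannot cross the inner mitochondrial membrane, so cells make it in the cytosol from other carbon. In the citrate route, mitochondrial citrate is carried out by the product of Slc25a1 and cleaved by ATP citrate lyase (Acly) into acetyl-CoA and oxaloacetate. In the acetate route, ACSS2 joins acetate to coenzyme A in the cytosol and nucleus, while ACSS1 and ACSS3 are mitochondrial. ACOT12 is a liver thioesterase that runs the reaction the other way and frees acetate, and the monocarboxylate carriers MCT1 (Slc16a1) and MCT2 (Slc16a7) move lactate, pyruvate and related acids, among them acetate, across membranes. Carnitine acetyltransferase (Crat) exchanges acetyl groups between coenzyme A and carnitine, and malonyl-CoA decarboxylase (Mlycd) turns malonyl-CoA back into acetyl-CoA. In liver, cytosolic acetyl-CoA feeds fatty acid and cholesterol synthesis and protein acetylation.

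In HKO livers Acss3 and Acly fell, and no supply gene was called higher. Of the 10 genes, 9 had enough reads to be tested and Acss1 did not. Both called genes were lower in HKO, 2 of 9 tested (edgeR quasi-likelihood test, Benjamini-Hochberg adjusted p under 0.05), where 3.99% of all 14068 tested genes were called and 3.07% were called lower. None was called higher by edgeR, against a background of 0.917% called higher. At an unadjusted p under 0.05 in edgeR there were 4 supply genes, of which 0 were higher in HKO. That count has no background given here. DESeq2 called 0 higher and 3 lower, Acss2 besides Acss3 and Acly, but it called 1112 genes in all where edgeR called 561. Leaving out 1 library in edgeR gave 3 calls without flox replicate 3, 2 without flox replicate 4 and 1 without HKO replicate 1. Each other fit that left out 1 library called 0 supply genes. Acss2, the targeted gene, had a lower mean in HKO and did not pass the threshold. By their means, 7 of the 10 were lower and 3 higher in HKO, and the median log2 fold change of the 9 tested was -0.27, beside 0.01 for all tested genes. In 0 of the 10 did the libraries of the groups stand apart without overlap, where 5.37% of tested genes did.

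**Figure D1:**
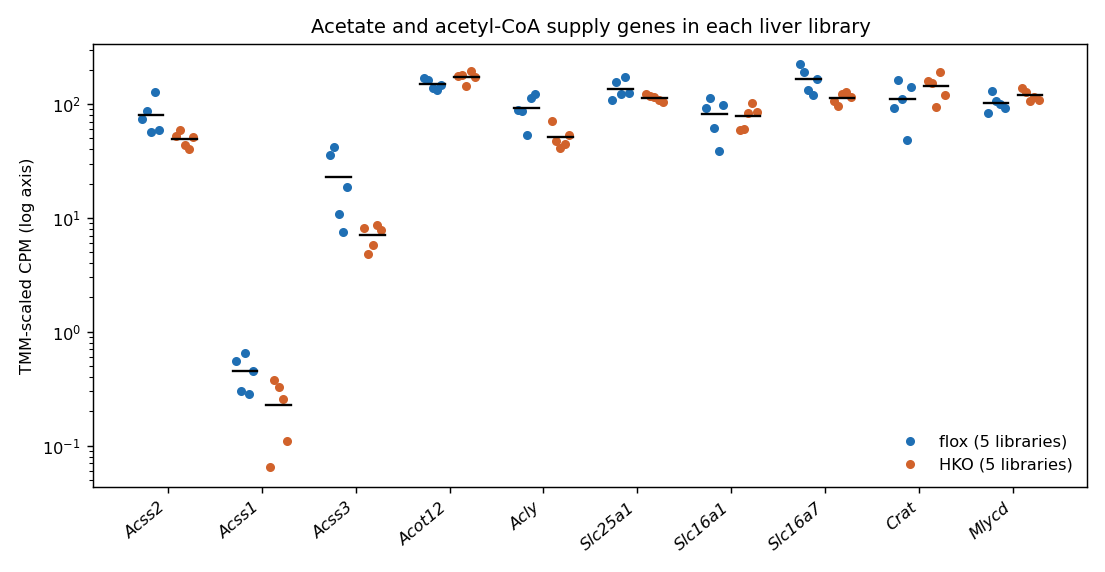
Level of each supply gene in each library, as TMM-scaled CPM on a log axis; blue points are the 5 flox libraries, orange points the 5 HKO libraries, and bars the group means. The points of the groups overlap for every gene, and Acss1 lies under 1 CPM in every library while the means of 8 others lie between 49.4 and 174 CPM.

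Total counts per library were 16933436 to 17196774 in flox and 15413648 to 19275358 in HKO, so 3 counts were worth 0.151 to 0.198 CPM (counts per gene for one shared library size, after TMM normalisation). Among whole-liver markers, the 10 hepatocyte markers summed to between 93564 and 148901 CPM in flox and between 122955 and 156118 in HKO, with 0 of 10 called by edgeR (2 at an unadjusted p under 0.05, 1 called higher by DESeq2); Alb, the serum albumin gene, had a log2 fold change of 0.16 (adjusted p = 0.770 in edgeR). All 12 macrophage markers tested fell in HKO, where 3.07% of all tested genes were called lower. Fits that left out 1 library called 10 to 12 of them. The 12 markers summed to 285 to 680 CPM in flox and 111 to 224 CPM in HKO. The median of their log2 fold changes was -1.69, and no marker was at 0. Of 8 endothelial markers 1 fell (Cdh5), a call that held in 5 of the 10 fits that left out 1 library. Markers of stellate cells (0 of 8), bile duct cells (0 of 5), lymphocytes (0 of 5) and red blood cells (0 of 5) were not called by edgeR or DESeq2, with 3 stellate markers and none of the others at an unadjusted p under 0.05. Of the adipocyte and muscle markers 1 was tested and not called by either tool (unadjusted p under 0.05 in edgeR), and Ckm and Myh4 were at 0. The Y-linked Ddx3y was read at 71.4 to 122 CPM over the 10 libraries, and Xist, which females transcribe from one X chromosome, at no more than 0.601 CPM. Both groups thus showed the male pattern of these 2 genes in every library. Cyp2b9, a female-biased liver cytochrome chosen after its values were seen, ran from 49.6 to 599.7 CPM in flox and from 0.126 to 4.08 CPM in HKO, lowest of flox in replicate 4. The part of these shifts in the values below was not tested. In whole tissue, fewer cells of a type and less RNA per cell cannot be told apart.

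The sequences before the start sites of Acss2, Acly and Slc25a1 are shown. These genes encode the enzyme of the acetate route and the enzyme and carrier of the citrate route. Each is the 250 bases before the start site from RefSeq (GRCm38.p6), at chr2:155517793-155518042 on the plus strand for Acss2, chr11:100528001-100528250 on the minus strand for Acly and chr16:17928220-17928469 on the minus strand for Slc25a1, written 5′ to 3′ along the gene. Capitals mark the Sp1 GC box (GGGCGG, or CCGCCC on the other strand) and the NF-Y box (CCAAT, or ATTGG on the other strand).
Acss2: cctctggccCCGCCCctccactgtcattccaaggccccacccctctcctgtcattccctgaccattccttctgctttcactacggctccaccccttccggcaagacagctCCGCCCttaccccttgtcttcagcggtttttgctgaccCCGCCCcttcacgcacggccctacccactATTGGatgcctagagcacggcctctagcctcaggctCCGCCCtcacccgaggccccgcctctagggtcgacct
Acly: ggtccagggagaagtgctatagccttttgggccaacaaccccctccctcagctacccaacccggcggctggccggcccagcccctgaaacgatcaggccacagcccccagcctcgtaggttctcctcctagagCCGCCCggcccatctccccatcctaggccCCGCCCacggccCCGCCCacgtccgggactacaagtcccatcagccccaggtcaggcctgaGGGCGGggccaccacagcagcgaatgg
Slc25a1: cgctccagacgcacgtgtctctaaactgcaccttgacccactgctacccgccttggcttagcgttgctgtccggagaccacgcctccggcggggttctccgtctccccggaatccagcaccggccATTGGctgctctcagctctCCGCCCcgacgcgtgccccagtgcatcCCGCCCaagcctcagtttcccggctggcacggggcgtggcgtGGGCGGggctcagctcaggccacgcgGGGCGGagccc

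The Acss2 stretch holds 4 GC boxes and 1 NF-Y box, the Acly stretch 4 GC boxes, and the Slc25a1 stretch 4 GC boxes and 1 NF-Y box. Over windows of 250 bases before and 50 after the start, 7 of the 10 genes matched a RefSeq entry, and Acss3, Slc16a7 and Crat had none. A GC box was found in 6 of the 7 on either strand, against 35.7% of 32851 promoters, and an NF-Y box in 4 of the 7, against 37.4%. The letters of a sterol regulatory element, TCACNCCAC, were in 0 of the 7 windows and in 1.24% of all promoters. An E-box (CACGTG) was in the windows of Slc25a1 and Slc16a1, 2 of 7, against 7.15% of all promoters. No match of one motif overlapped that of another in these 7 windows. These are matches of letters and describe the windows only.

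Acss2 (ENSMUSG00000027605) encodes the cytosolic and nuclear acetate enzyme and was the gene targeted. Flox replicates 1 to 5 had 73.2, 86.9, 56.5, 129 and 58.6 CPM. HKO replicates 1 to 5 had 52.8, 59.0, 43.8, 40.2 and 51.4 CPM. Every HKO library still held Acss2 reads, 3 of the flox libraries lay above all HKO libraries, and flox replicates 3 and 5, at 56.5 and 58.6 CPM, lay just under the highest HKO library. The means were 80.8 ± 29.5 CPM in flox and 49.4 ± 7.47 CPM in HKO (SD, n = 5 each). On the log2 scale the difference was -0.71 ± 0.21 (SE), which places HKO at 61.2% of flox with a 95% confidence interval of 44.6% to 84.0%. It missed the threshold (adjusted p = 0.0858 in edgeR), although 4 of 17 other settings put it below 0.05, and the two-sided exact permutation p from log2 CPM was 0.0238. Without flox replicate 4 the log2 fold change was -0.47 (adjusted p = 0.163 in edgeR). The spread also differed, with a coefficient of variation of 36.5% in flox and 15.1% in HKO. In the table's coordinates it runs along the plus strand of chromosome 2, from 155359868 to 155427644, and overlaps the glutathione synthetase gene Gss on the opposite strand over 22544 bases. Gss had 92.4% as many counts and a log2 fold change of -0.11 (adjusted p = 0.733 in edgeR). Without strand, reads of the shared bases cannot be told apart, and in GENCODE M21 3.89% of the exonic bases of Acss2 are shared with Gss. A count over the whole gene also takes in exons outside a deletion and cells outside the knockout, and their share was not tested.

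Acss3 (ENSMUSG00000035948; chromosome 10, 106769378 to 106959529, minus strand), a mitochondrial short-chain synthetase known for its use of propionate, fell the most of the supply genes tested. Flox replicates 1 to 5 had 35.8, 42.1, 10.9, 7.45 and 18.8 CPM. HKO replicates 1 to 5 had 8.23, 4.85, 5.81, 8.74 and 7.83 CPM. Of the flox libraries 4 lay above every HKO library, and flox replicate 4 lay inside the HKO range. The mean fell from 23.0 ± 15.3 CPM to 7.09 ± 1.67 CPM (SD, n = 5 each). This is a log2 fold change of -1.69 ± 0.40 (SE), or 30.9% of flox with a 95% confidence interval of 16.9% to 56.4% (adjusted p = 0.0315 in edgeR; exact permutation p = 0.0317). The call held in 2 of the 10 fits that left out 1 library, those without flox replicate 3 (adjusted p = 0.0189 in edgeR) and without flox replicate 4 (adjusted p = 0.00800 in edgeR), while the log2 fold change stayed between -1.91 and -1.36, and it was lost with robust dispersion (adjusted p = 0.0645 in edgeR). Its GENCODE M21 exons share 33.9% of their bases with Ppfia2 on the opposite strand, which had 42 counts, 1.65% of those of Acss3. The macrophage sums of flox replicates 1 to 5 were 379.6, 424, 285, 627 and 679.7 CPM, an order other than that of Acss3, and their part in its fall was not tested.

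Acss1 (ENSMUSG00000027452; chromosome 2, 150460025 to 150510420, minus strand), the mitochondrial acetate synthetase, was almost unread in these livers. Its raw counts were 9, 5, 12, 5 and 9 in flox replicates 1 to 5. In HKO replicates 1 to 5 they were 1, 6, 5, 4 and 2. The groups overlapped, and of the HKO libraries replicates 1 and 5 lay below 3 counts. The totals were 40 counts in flox and 18 in HKO, or 0.450 ± 0.158 CPM and 0.228 ± 0.136 CPM (SD, n = 5 each). An exact two-sided permutation test gave p = 0.0556. In an edgeR fit with no filter on low counts the log2 fold change was -0.96 ± 0.58 (SE; 95% confidence interval -2.15 to 0.23; adjusted p = 0.525). At 40 and 18 counts a small difference was not detectable.

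Per kilobase of the table's gene length, the 3 synthetase genes together came to 11.3 ± 3.23 CPM per kb in flox and 5.91 ± 0.645 in HKO (SD, n = 5 each). These sums follow from the genes above and were not tested. Flox libraries ran from 7.24 to 14.5 CPM per kb and HKO libraries from 5.20 to 6.57, so the ranges did not meet. Acss2 made up 70.9% ± 13.98 of the sum in flox and 82.1% ± 4.52 in HKO, and Acss3 28.0% ± 14.01 and 16.9% ± 4.67. Acss2 was thus the larger part of the synthetase transcripts in each of the 10 libraries, with its lowest share, 58.5%, in flox replicate 1 and its highest, 92.0%, in flox replicate 4. Acss1 averaged 1.12% of the sum in flox and 0.961% in HKO. These shares depend on the length used, because the table gives Acss2 10163 bases and Acss3 7196, while their longest coding transcripts in GENCODE M21 have 2931 and 4696. Per kilobase of those transcripts, a scale added after the values were seen, the share of Acss3 was 15.44% ± 8.49 in flox and 8.38% ± 2.53 in HKO, and that of Acss2 84.1% ± 8.49 and 91.3% ± 2.49. On that scale the flox sums lay between 21.8 and 45.6 and the HKO sums between 15.7 and 21.3.

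**Figure D2:**
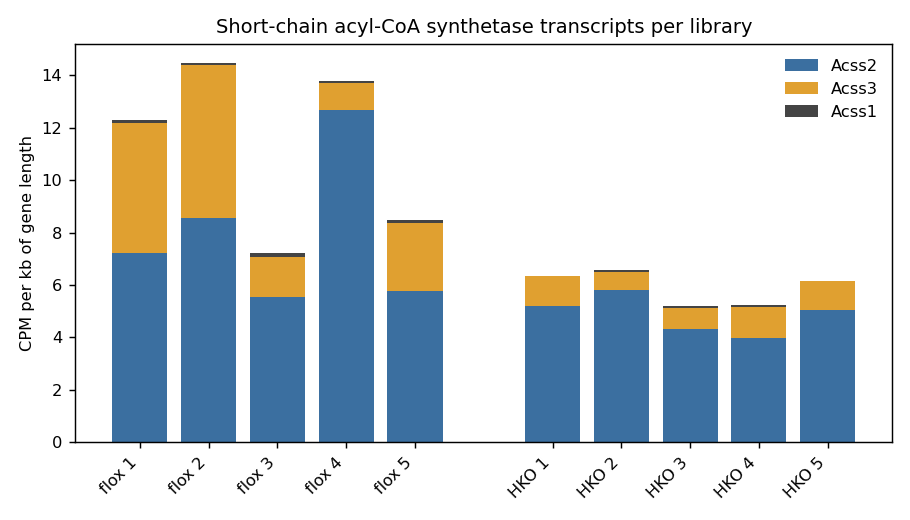
Stacked level of Acss2 (blue), Acss3 (yellow) and Acss1 (dark) in each of the 10 libraries, in CPM per kilobase of the table's gene length, from a baseline of 0. The 5 HKO stacks lie between 5.20 and 6.57, below all flox stacks, and the blue part is the largest in every library.

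Acss3, Acss1 and Acly were also compared as a ratio to Acss2 within each library. Such a ratio moves with Acss2 itself, so it cannot show whether another gene stood in for Acss2. The log2 ratio of Acss3 to Acss2 was -2.03 ± 1.27 in flox and -2.80 ± 0.50 in HKO (SD, n = 5 each), a difference of -0.77 (exact two-sided permutation p = 0.246, Benjamini-Hochberg adjusted p = 0.738 over the 3 ratios). Without flox replicate 4 this difference was -1.29 (exact permutation, adjusted p = 0.0714). The log2 ratio of Acss1 to Acss2 differed by -0.12 (exact permutation p = 0.778, adjusted p = 0.778). At the low counts of Acss1 this value depends on the prior count. With a prior count of 0.5 in place of 2 it was -0.38 (exact permutation, adjusted p = 0.611). For Acly to Acss2 the difference was -0.17 (exact permutation p = 0.611, adjusted p = 0.778), from 0.21 ± 0.50 in flox to 0.04 ± 0.28 in HKO. No ratio differed beyond the spread between libraries, and all 3 point estimates were negative. The 95% confidence intervals of Acss3 and Acly in the gene test lay below 0, at -2.56 to -0.83 and at -1.31 to -0.39 on the log2 scale, so a higher mean in HKO lies outside both. These values concern transcripts and not enzyme activity.

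**Figure D3:**
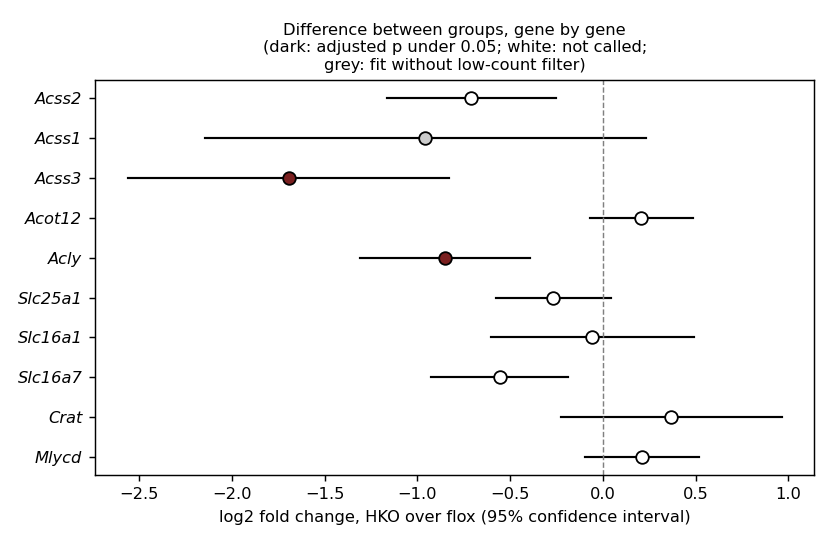
log2 fold change of HKO over flox for each supply gene with its 95% confidence interval (horizontal lines); dark points passed the edgeR threshold, white points did not, and the grey point (Acss1) is from the fit with no filter on low counts. Intervals of Acss2, Acss3, Acly and Slc16a7 lie left of the dashed line at 0, and the other 6 cross it.

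In the citrate route, Acly (ENSMUSG00000020917; chromosome 11, 100367179 to 100418826, minus strand), which cleaves citrate in the cytosol, fell and the carrier gene Slc25a1 did not pass the test. Acly stood at 88.6, 86.5, 53.2, 113 and 122 CPM in flox replicates 1 to 5. In HKO replicates 1 to 5 it stood at 70.5, 47.1, 41.0, 44.99 and 53.7 CPM. Flox replicate 3 lay below HKO replicates 1 and 5, and the other 4 flox libraries lay above every HKO library. The mean fell from 92.7 ± 26.9 CPM to 51.4 ± 11.6 CPM (SD, n = 5 each). On the log2 scale the change was -0.85 ± 0.21 (SE), or 55.5% of flox with a 95% confidence interval of 40.3% to 76.3% (adjusted p = 0.0405 in edgeR; exact permutation p = 0.0238). The call held in 2 of the 10 fits that left out 1 library, those without flox replicate 3 (adjusted p = 0.0120 in edgeR) and without HKO replicate 1 (adjusted p = 0.0354 in edgeR), with a log2 fold change between -0.998 and -0.73 throughout. The flox libraries with the highest Acly, replicates 4 and 5, also had the highest macrophage sums, and flox replicate 3 had the lowest of both. In HKO, replicate 3 had the highest macrophage sum (224 CPM) and the lowest Acly. HKO replicates 1 and 5 had the lowest sums (131 and 111 CPM) and the highest Acly. The relation of Acly to the macrophage sums was not tested.

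Slc25a1 (ENSMUSG00000003528; chromosome 16, 17743087 to 17746083, minus strand), whose product exports citrate from mitochondria, had 108, 156, 121, 173 and 126 CPM in flox replicates 1 to 5. In HKO replicates 1 to 5 it had 122, 117, 116, 109 and 104 CPM. The HKO libraries lay close together and only replicate 5 among them was below every flox library. The means were 137 ± 26.7 CPM and 114 ± 7.01 CPM (SD, n = 5 each), a log2 fold change of -0.27 ± 0.14 (SE) with a 95% confidence interval of -0.58 to 0.04 (adjusted p = 0.384 in edgeR). Acly and Slc25a1 encode consecutive steps, and the difference between their fold changes was not tested.

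Of the carriers, Slc16a7 (ENSMUSG00000020102; chromosome 10, 125055139 to 125225334, minus strand), which encodes MCT2, was lower in HKO by its mean. Its flox values in replicates 1 to 5 were 224, 192, 133, 121 and 166 CPM. Its HKO values in replicates 1 to 5 were 107, 96.7, 122, 127 and 116 CPM. Flox replicate 4 lay inside the HKO range and the other 4 flox libraries above it. The means were 167 ± 42.4 CPM and 114 ± 12.1 CPM (SD, n = 5 each). The log2 fold change of -0.56 ± 0.17 (SE; 95% confidence interval -0.93 to -0.19) missed the threshold (adjusted p = 0.0951 in edgeR; exact permutation p = 0.0238). It passed without flox replicate 4 (adjusted p = 0.0484 in edgeR). The gene spans chromosome 10 from 125055139 to 125225334 on the minus strand.

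Slc16a1 (ENSMUSG00000032902; chromosome 3, 104545984 to 104565778, plus strand), which encodes MCT1, showed the groups mixed. It had 92.5, 113, 62.1, 38.8 and 98.8 CPM in flox replicates 1 to 5. HKO replicates 1 to 5 had 59.5, 60.1, 84.1, 102 and 84.5 CPM. All HKO values lay inside the flox range. The means were 81.1 ± 30.1 CPM and 77.9 ± 18.03 CPM (SD, n = 5 each), with a log2 fold change of -0.06 ± 0.25 (SE). The 95% confidence interval of -0.60 to 0.49 allows a difference in either direction (adjusted p = 0.946 in edgeR).

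The thioesterase gene Acot12 (ENSMUSG00000021620; chromosome 13, 91889631 to 91934267, plus strand), whose product frees acetate from acetyl-CoA, had 170.7, 163, 139, 134 and 146 CPM in flox replicates 1 to 5. In HKO replicates 1 to 5 it had 178, 179, 145, 196 and 171.1 CPM. Of the HKO libraries 4 lay above every flox library, with replicate 3 inside the flox range. The means were 150.4 ± 15.8 CPM and 174 ± 18.5 CPM (SD, n = 5 each). On the log2 scale they differed by 0.21 ± 0.13 (SE), with a 95% confidence interval of -0.07 to 0.49 (adjusted p = 0.462 in edgeR; exact permutation p = 0.0635). Acot12 had the smallest spread of the 10 genes in flox, a coefficient of variation of 10.5%.

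Crat (ENSMUSG00000026853; chromosome 2, 30290483 to 30305825, minus strand), which loads acetyl groups onto carnitine, had 91.7, 163, 112, 48.6 and 142 CPM in flox replicates 1 to 5. HKO replicates 1 to 5 had 159, 154, 94.2, 192 and 120.4 CPM. Only HKO replicate 4 lay above all flox libraries. The means were 111 ± 44.5 CPM and 144 ± 37.6 CPM (SD, n = 5 each), a log2 fold change of 0.37 ± 0.28 (SE; 95% confidence interval -0.23 to 0.97; adjusted p = 0.558 in edgeR). It shares 59 bases with Dolpp1 on the opposite strand, a gene with 11.9% as many reads.

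Mlycd (ENSMUSG00000074064; chromosome 8, 120121617 to 120137841, plus strand), which returns malonyl-CoA to acetyl-CoA, had 84.1, 131, 107, 101 and 92.6 CPM in flox replicates 1 to 5. Its HKO values in replicates 1 to 5 were 137, 127, 107, 116 and 109 CPM. Only HKO replicate 1 lay above all flox libraries. The means were 103 ± 17.9 CPM and 119 ± 12.8 CPM (SD, n = 5 each), with a log2 fold change of 0.21 ± 0.14 (SE; 95% confidence interval -0.10 to 0.52; adjusted p = 0.507 in edgeR). Acot12, Crat and Mlycd were the 3 genes with a higher mean in HKO, and all 3 intervals included 0.

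Levels of different genes were compared per kilobase of the gene length in the table. In flox the order ran from Slc25a1 at 63.2 CPM per kb through Acot12 at 45.7, Mlycd at 34.8, Crat at 20.7, Slc16a1 at 18.3, Acly at 17.6, Slc16a7 at 14.1, Acss2 at 7.95 and Acss3 at 3.20 to Acss1 at 0.109. Every pair of neighbours in that order overlapped over the 5 libraries except Acss3 and Acss1. In HKO the order was Acot12 at 52.7 CPM per kb, Slc25a1 at 52.5, Mlycd at 40.2, Crat at 26.7, Slc16a1 at 17.6, Acly at 9.74, Slc16a7 at 9.60, Acss2 at 4.87, Acss3 at 0.986 and Acss1 at 0.0553. There, only Acot12 and Slc25a1, Crat and Slc16a1, and Acly and Slc16a7 overlapped as neighbours. The place of Acss2 depends on the length used. Per kilobase of the longest coding transcript, it stood at rank 4 in flox at 27.6 CPM per kb and at rank 6 in HKO at 16.9, with ranges that overlapped those of both neighbours in each order. On both scales Slc25a1, Acot12 and Mlycd were the first 3, and Acss3 and Acss1 the last.

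Flox replicate 4 was the highest flox library for Acss2 and Slc25a1 and the lowest for 6 genes, Acss1, Acss3, Acot12, Slc16a1, Slc16a7 and Crat. As a description over the 10 libraries, after subtracting each group's mean from log2 CPM, Pearson's r was 0.90 between Acss3 and Slc16a7, 0.82 between Acss3 and Slc16a1, and 0.85 between Slc16a1 and Slc16a7. For Acss2 it was 0.74 with Slc25a1, 0.45 with Acly, -0.27 with Acss3 and -0.60 with Slc16a1. The points share their libraries and depth.

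**Figure D4:**
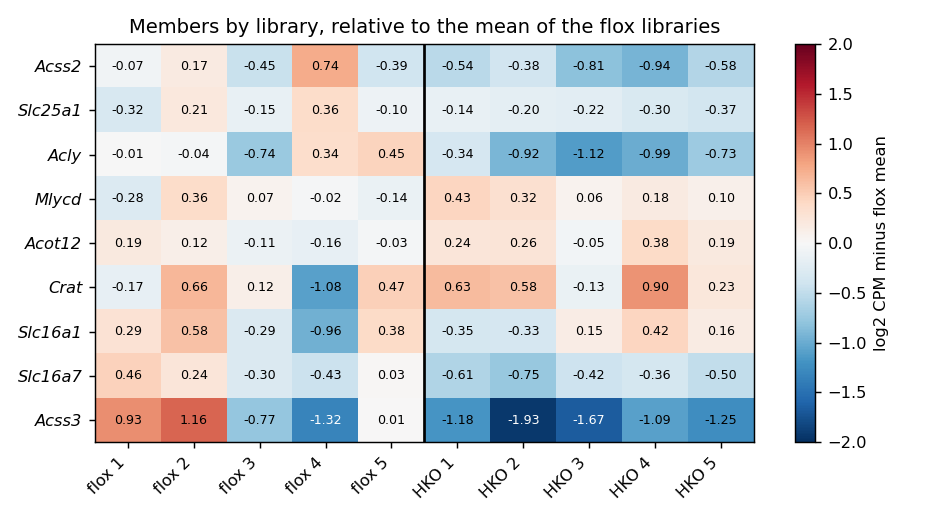
log2 CPM of the 9 tested supply genes in each library (columns) less the mean of the 5 flox libraries; red is higher, blue lower, and the vertical line divides flox from HKO. Flox replicate 4 is the reddest cell of the Acss2 row at 0.74 and the bluest flox cell for Acss3 at -1.32, and Acss3 is blue in all 5 HKO columns. Acss1 is left out because it did not pass the filter on low counts.

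Among 12971 genes with a mean of at least 1 CPM, those whose log2 CPM was most like that of Acss2 within groups were Prodh, which encodes proline dehydrogenase (r = 0.95), Zfyve21 (r = 0.92) and Gsap (r = 0.92). For Acss3 they were the flavin monooxygenase gene Fmo5 (r = 0.98), the ferritin heavy chain gene Fth1 (r = 0.96) and Gfm2 (r = 0.96). For Acly they were 2210408I21Rik (r = 0.94), Akt2-ps (r = 0.93) and Tbcel (r = 0.91). None of these 9 genes passed the gene test, and adjusted p in edgeR ran from 0.0526 (Gsap) to 0.875 (Akt2-ps). They are the highest of many correlations over 10 libraries and are given as a description. Akt2-ps is a near-identical copy of Akt2, so its counts are uncertain, and Zfyve21, Prodh and Gfm2 overlap other genes that hold at least 15.9% as many counts.

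Of 10 genes that use cytosolic acetyl-CoA, 4 fell in HKO and none was called higher (0 higher at an unadjusted p under 0.05), with a median log2 fold change of -0.62. Over all tested genes 3.07% were called lower and the median was 0.01. Fatty acid synthase, Fasn, fell from 249 ± 56.6 CPM to 80.4 ± 20.2 CPM (SD, n = 5 each; log2 fold change -1.63, adjusted p = 0.00217 in edgeR). Its flox libraries ran from 164 to 319 CPM and its HKO libraries from 54.4 to 99.7 CPM, with no overlap. Acaca, which makes malonyl-CoA, had a log2 fold change of -1.03 (adjusted p = 0.0123 in edgeR). Acat2, which condenses acetyl-CoA to acetoacetyl-CoA in the cytosol, had -0.66 (adjusted p = 0.0156 in edgeR), and the fatty acid elongase Elovl6 -0.89 (adjusted p = 0.0416 in edgeR). The calls of Fasn, Acaca and Acat2 held in all 10 fits that left out 1 library, and that of Elovl6 in 2. Reads of Acaca and Acat2 may be split with the near-identical Gm5182 and Acat3.

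Of 21 genes of the citrate cycle and mitochondrial acetyl-CoA supply, 1 fell and none was called higher, a share near the 3.07% called lower among all tested genes, with a median log2 fold change of -0.17. It was Idh2, the mitochondrial NADP-dependent isocitrate dehydrogenase, which fell from 136 to 78.5 CPM (log2 fold change -0.79, adjusted p = 0.0137 in edgeR) and held in all 10 fits that left out 1 library. Citrate synthase, Cs, had a log2 fold change of -0.29 (adjusted p = 0.199 in edgeR). Of 8 genes that oxidise alcohols and aldehydes, a source of acetate, 2 fell, beside 3.07% of all tested genes, and the median log2 fold change was -0.31. The mitochondrial aldehyde dehydrogenase gene Aldh1b1 fell from 53.3 ± 25.8 CPM to 14.6 ± 4.98 CPM (SD, n = 5 each; log2 fold change -1.87, adjusted p = 0.00834 in edgeR), with flox libraries from 29.4 to 96.8 CPM and HKO libraries from 8.997 to 18.96 CPM. Aldh1a1, the retinal dehydrogenase gene, fell from 2276 to 1238 CPM (log2 fold change -0.88, adjusted p = 0.0438 in edgeR), a call that held in 3 of the 10 fits that left out 1 library. Aldh2, the main acetaldehyde enzyme, had a log2 fold change of -0.29 (adjusted p = 0.499 in edgeR).

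Acyl-CoA thioesterases other than Acot12 had 1 of 13 tested genes called, where 3.99% of all tested genes were. It was Them6, which fell from 4.54 to 2.01 CPM (log2 fold change -1.17, adjusted p = 0.0471 in edgeR) and kept its call in 1 of the 10 fits that left out 1 library. Acot1, whose reads may be split with Acot2, had a log2 fold change of 0.93 (adjusted p = 0.246 in edgeR). No gene was called by edgeR among 11 monocarboxylate carriers and partners, 13 other acyl-CoA synthetases, 6 carnitine acyltransfer genes and 11 regulators of the supply genes. At an unadjusted p under 0.05 in edgeR these lists held 6, 4, 1 and 3 genes, of which 0, 2, 1 and 1 were higher in HKO. The share of all tested genes at that p is not given here, so these counts have no background. DESeq2 called 0, 1, 1 and 1, of which 0, 1, 1 and 0 were higher, where it called 1112 genes in all. Bsg, the chaperone of MCT1, had a log2 fold change of -0.43 (adjusted p = 0.219 in edgeR), and the long-chain synthetase gene Acsl1 one of 0.56 (adjusted p = 0.194 in edgeR). Cpt1a, which starts fatty acid entry into mitochondria, had 0.31 (adjusted p = 0.522 in edgeR). Srebf1, which encodes the lipogenic factor SREBP1, had means of 213 CPM in flox and 90.1 CPM in HKO and a log2 fold change of -1.24 (adjusted p = 0.0590 in edgeR), and passed in 3 of the 10 fits that left out 1 library. The part of the macrophage sums given above in the calls of these lists was not tested.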

How the data were processed

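Liver RNA-seq of 10 mouse libraries was used, 5 flox and 5 HKO, grouped by the genotype in the labels. The values deposited by the authors are raw counts per gene, as whole numbers. Per the submitters' processing notes, mm10 and DESeq2 were used; no aligner, counter, annotation or strand setting is named in the sources used here. Coordinates follow the table: 0 of 10 supply genes share start and end with GENCODE M21, and 2.83% of 52073 matched genes do, so their build is uncertain. Promoters are from RefSeq on GRCm38.p6 and are not mixed with them.

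HKO was compared with flox by edgeR 4.0.16 (R 4.3.3; TMM, filterByExpr by group, two-sided quasi-likelihood F-test), with Benjamini-Hochberg adjustment over the 14068 genes that passed the filter and a threshold of 0.05. The SE was taken back from the F-test. Levels are TMM-scaled CPM, and log2 CPM used a prior count of 2. Exact two-sided permutation tests ran over 252 assignments, whose smallest p is 0.00794. Limits from counts cover counting error only. Between libraries of a group, chi-square per degree of freedom was at least 24.6, so no library was counted as a repeat of another. Replicate numbers were not taken to pair the samples in the main fit, and whether they do by design is not known here. The test was tested on simulated data. Near-identical copies (95% identity or more along 50% of a transcript or more) were sought with BLAST 2.17.0, and no supply gene had one.

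The supply genes and the other lists were chosen with earlier results of these data known. Named were all supply genes, called genes of each list (at most 6) with its first gene, and the 3 genes most like Acss2, Acss3 and Acly. Alternatives were other scalings and filters, DESeq2, robust dispersion, a replicate block and leaving out each library.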

Additional observations from a re-analysis of the deposited data

How the results depend on the processing

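DESeq2 called 1112 genes in all where edgeR called 561, and leaving out 1 library gave 289 to 673. The number of supply genes called was 2, and became 4 with library totals alone, 1 with robust dispersion, 1 with the replicate block and 0 to 3 when 1 library was left out. Acss2 passed with library totals alone (log2 fold change -0.80), with DESeq2 (-0.70) and with no filter on low counts (-0.70), and ran from -0.81 to -0.47 when 1 library was left out. Acss3 lost its call with robust dispersion (-1.69, adjusted p = 0.0645 in edgeR) and with the replicate block (-1.44, adjusted p = 0.0741 in edgeR), and ran from -1.91 to -1.36 when 1 library was left out. Acly ran from -0.998 to -0.73 when 1 library was left out. Across the alternatives adjusted p-values reached from 0.0416 to 0.186 for Acss2, from 0.000788 to 0.0837 for Acss3 and from 0.00881 to 0.108 for Acly. The cause of these changes was not tested. Same-numbered libraries of the groups had correlations of -0.12 to 0.24 after each group's mean was subtracted. Whether the numbers pair the libraries by design cannot be told from these values. Library totals alone moved the median of all tested genes by -0.11 (log2). Less that median, Acss2 stood at -0.70 and Slc16a7 at -0.56. No supply gene changed the sign of its fold change in an alternative except Slc16a1, from -0.23 to 0.09. The ratios to Acss2 missed the threshold in all 12 alternatives each, with Acss3 from -1.29 to -0.52, and for Acss1 (-0.41 to 0.12) and Acly (-0.27 to 0.04) the sign varied. Depth limits Acss1, at 1 to 12 counts per library.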
